A study of Homo sapiens with 6 samples.

Results

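The G2 and mitosis genes are 42 genes whose products carry a cell through G2 and mitosis, chosen by gene symbol among the 61806 genes of the deposited count table. All 42 were found, and all 42 passed the filter on low counts that left 15704 genes for testing. RNA was sequenced from 6 libraries of HFF cells, an established wild-type culture of human foreskin fibroblasts from a cell bank. Cells of both groups were given ultraviolet B (UVB) at 40 mJ per cm2, radiation that damages DNA directly, and were kept for 48 h. The UVB + sauchinone group (3 libraries) was cultured with 10 µM sauchinone, a lignan from plants, and the UVB group (3 libraries) with vehicle. The labels' protocols describe addition of the compound after irradiation and also a version with 4 h of exposure beforehand, without saying which version gave these libraries. Unirradiated cells were not analysed here, so the effect of UVB itself is not described.

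Cyclins A and B with the kinase CDK1 drive entry into mitosis, in which condensin compacts chromosomes, kinetochores attach them to spindle microtubules, and a checkpoint holds back anaphase until all are attached. The ubiquitin ligase APC/C then marks securin and cyclin B for destruction, separase cuts cohesin, and the cell divides. Most of these genes are transcribed in G2 and mitosis through FOXM1, B-MYB and the MuvB complex, and are shut off in resting or arrested cells by the DREAM complex. Fibroblasts are known to arrest after UVB damage, so these transcripts are commonly read as a measure of how many cells still divide. In RNA from a whole culture, fewer cells in G2 and mitosis and less of each RNA per cell cannot be told apart.

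The total count per library was 20984851 to 23076388. A count of 3 corresponded to 0.129 to 0.144 CPM, CPM being the count scaled to library size (TMM), and this floor covers counting error only. The labels do not state whether replicates are separate cultures, and p-values measure the spread between these libraries, which may be technical. The labels give all libraries the same batch. All 10 fibroblast markers exceeded 3 counts in every library, with a summed level of 14399 to 14713 CPM in UVB + sauchinone and 20669 to 22388 CPM in UVB. Of the markers of other cell types, 8 of pericytes and smooth muscle summed to 173 to 189 CPM in UVB + sauchinone and 357 to 359 CPM in UVB, 8 of keratinocytes to 32.0 to 33.9 and 28.95 to 31.6 CPM, 6 of melanocytes to 43.4 to 44.2 and 55.9 to 64.2 CPM, 6 of endothelium to 2.51 to 3.39 and 6.76 to 7.99 CPM, and 6 of immune cells to 3.69 to 4.62 and 3.03 to 3.75 CPM. Of these markers, KRT5, KRT1, DSG3, CDH5, KDR, DCT and CD3E had no count in any library. Others exceeded 3 counts in every library: 7 of pericytes and smooth muscle, 4 of keratinocytes, 3 of melanocytes, 2 of immune cells and 1 of endothelium. The part of these shifts in the results below was not tested.

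With sauchinone most of the mitotic genes were lower. In edgeR's quasi-likelihood test, with p-values adjusted over all 15704 genes (Benjamini-Hochberg) and a threshold of 0.05, 34 of the 42 members fell, 2 rose and 6 did not pass, where 24.9% of all genes tested fell and 24.7% rose (49.6% in either direction). The median log2 fold change of the members, UVB + sauchinone over UVB, was −0.96, a 1.95-fold lower level, beside 0.0071 for all genes tested. A fall of at least 2-fold was called in 19 members, against 7.31% of genes tested. In 36 members every UVB + sauchinone library lay below every UVB library (28.5% of genes tested), in 2 every one lay above (28.6% of genes tested), and in 4 the groups overlapped. Summed over the 42 genes, the level was 871, 802 and 740 CPM in UVB + sauchinone replicates 1, 2 and 3, and 1336, 1383 and 1526 CPM in UVB replicates 1, 2 and 3. The falls ranged from 3.60-fold in ASPM to 1.19-fold in AURKA.

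**Figure D1:**
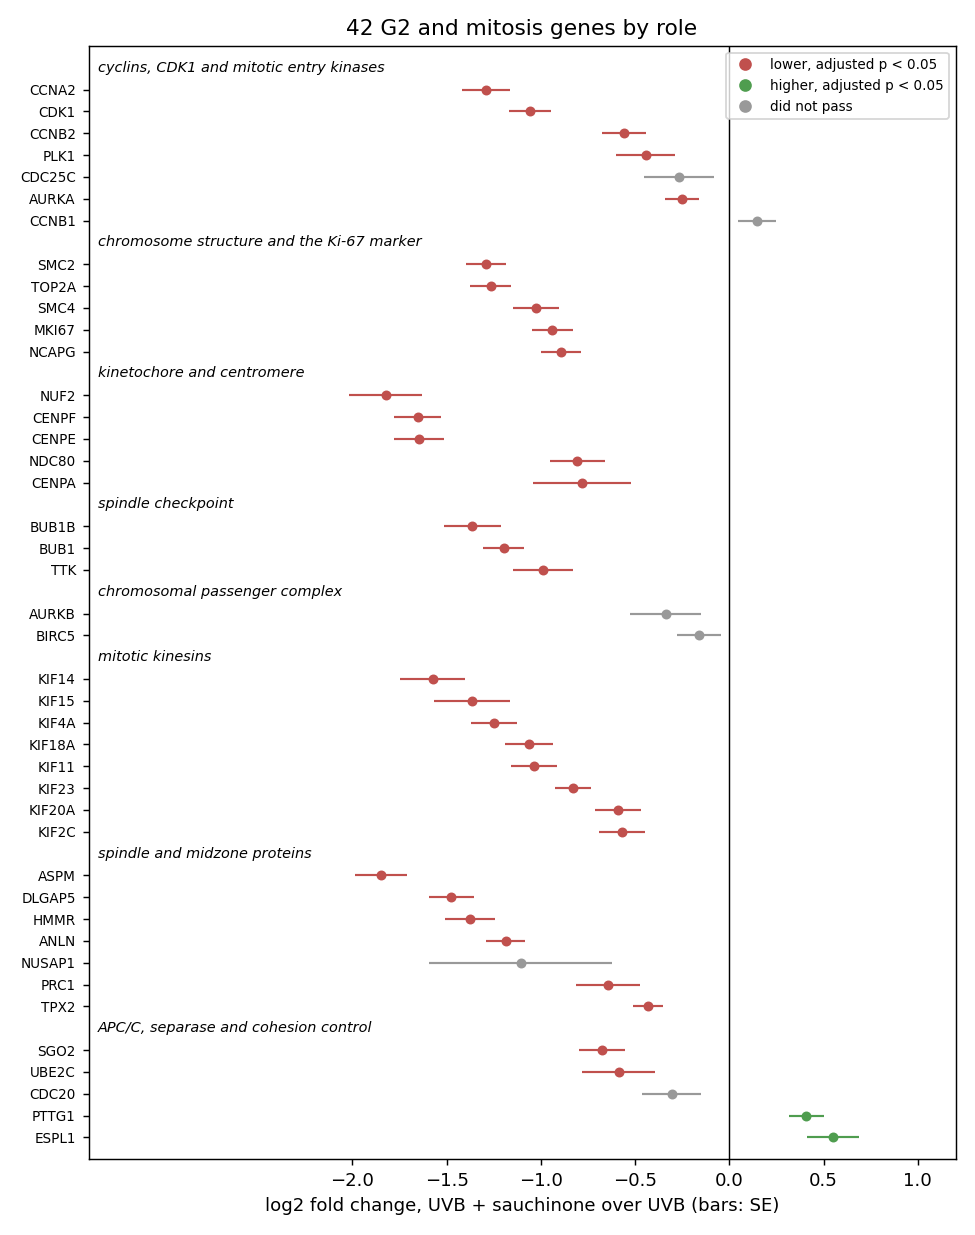
Log2 fold change of each of the 42 genes, UVB + sauchinone over UVB, with its standard error, grouped by role; red points fell, green points rose and grey points did not pass the threshold. Kinetochore, checkpoint, kinesin and chromosome structure genes all lie left of 0, whereas CCNB1, PTTG1 and ESPL1 lie to its right.

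Entry into mitosis. Of 7 genes of cyclins, CDK1 and entry kinases, 5 fell (24.9% of all genes tested fell) and 2 did not pass. CCNA2, which encodes cyclin A2 of S and G2 phase (ENSG00000145386, GRCh38 chromosome 4 at 121816444 to 121823883, minus strand), was at 15.0, 10.97 and 10.97 CPM in UVB + sauchinone libraries, against 27.6, 34.0 and 28.8 CPM in UVB libraries. All 3 treated libraries were below the lowest UVB library, and CCNA2 fell by 1.29 ± 0.13 on the log2 scale (SE, n = 3 in each group; adjusted p = 2.1e-08). CDK1, the kinase itself (ENSG00000170312, chromosome 10 at 60778331 to 60794852, plus strand), was at 19.3, 14.6 and 16.3 CPM in UVB + sauchinone and 31.4, 36.8 and 36.3 CPM in UVB. The groups did not overlap, and CDK1 fell 2.08-fold (adjusted p = 6.3e-08).

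Of the B cyclins, CDK1's partners in mitosis itself, CCNB2 fell and CCNB1 did not pass. CCNB2 fell 1.47-fold, to a mean of 15.7 ± 2.18 CPM in UVB + sauchinone against 23.2 ± 1.30 CPM in UVB (SD, n = 3; adjusted p = 0.00034). CCNB1, cyclin B1 (ENSG00000134057, chromosome 5 at 69167135 to 69178245, plus strand), was at 68.0, 62.3 and 57.5 CPM in UVB + sauchinone and 53.5, 65.9 and 50.4 CPM in UVB. These groups overlapped, and its log2 fold change of 0.15 ± 0.10 did not pass (adjusted p = 0.23). Without UVB replicate 2, its highest library in that group, CCNB1 passed as higher (0.27, adjusted p = 0.019). It also passed as higher with the trend in transcript GC content removed (0.27, adjusted p = 0.017). The ratio of CCNA2 to CCNB1 counts was 0.221, 0.176 and 0.191 in the UVB + sauchinone libraries and 0.515, 0.517 and 0.571 in the UVB libraries. This ratio was chosen after its values were seen, and its exact two-sided permutation p was 0.1, the smallest that 3 libraries against 3 allow.

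Among the entry kinases the falls were small. PLK1, Polo-like kinase, fell 1.36-fold (adjusted p = 0.021), and AURKA, the Aurora kinase of spindle poles, fell 1.19-fold (adjusted p = 0.023). Neither call was stable: PLK1 lost it without UVB + sauchinone replicate 2, without UVB + sauchinone replicate 3 and without UVB replicate 2 (highest adjusted p = 0.25), and AURKA lost it in 5 of the 6 fits that left out a library and with scaling by total counts (highest adjusted p = 0.082). CDC25C, a phosphatase that activates CDK1, had 3.55 ± 0.295 CPM in UVB + sauchinone and 4.27 ± 0.260 CPM in UVB and did not pass (log2 fold change −0.27, adjusted p = 0.25).

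Chromosome structure. All 5 genes of this role fell (24.9% of all genes tested fell), by 0.89 to 1.29 on the log2 scale. SMC2, a core ATPase of condensin, was at 24.6, 24.2 and 26.7 CPM in UVB + sauchinone, against 60.5, 52.3 and 71.7 CPM in UVB (2.45-fold lower, adjusted p = 1.2e-09). TOP2A, the topoisomerase that untangles sister chromosomes (ENSG00000131747, chromosome 17 at 40388525 to 40417896, minus strand), was at 65.2, 65.2 and 56.4 CPM in UVB + sauchinone and 132, 133 and 184 CPM in UVB. UVB replicate 3 stood above the other UVB libraries, and the fall was 2.41-fold (adjusted p = 2.1e-09). MKI67, the gene of the proliferation marker Ki-67, was at 41.1, 37.4 and 28.1 CPM in UVB + sauchinone, against 64.6, 70.3 and 69.3 CPM in UVB (1.92-fold lower, adjusted p = 2.3e-07). The condensin genes SMC4 and NCAPG fell 2.04-fold and 1.85-fold. According to GENCODE 29, 25.6% and 33.1% of the exonic bases of SMC4 and NCAPG are shared with genes on the opposite strand, and since the use of strand in counting is not stated, their levels are uncertain, as is that of PLK1, with 12.5% shared in this way.

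Kinetochores. The 5 kinetochore and centromere genes fell (24.9% of all genes tested fell), and this role had the lowest median of the 8, at −1.65. CENPF, a large kinetochore protein that accumulates in G2 (ENSG00000117724, chromosome 1 at 214603195 to 214664571, plus strand), was at 22.1, 20.4 and 16.1 CPM in UVB + sauchinone and 55.0, 55.3 and 73.9 CPM in UVB. CENPE, a kinetochore motor that moves chromosomes to the spindle equator, was at 8.23, 9.16 and 7.76 CPM in UVB + sauchinone and 23.1, 23.9 and 31.7 CPM in UVB (3.13-fold lower, adjusted p = 8.9e-10). In both genes UVB replicate 3 was the highest library, and the groups were far apart with or without it. NUF2 and NDC80, which encode subunits of the complex that grips microtubules, fell 3.54-fold and 1.75-fold, to 3.39 ± 1.18 and 9.36 ± 0.870 CPM in UVB + sauchinone against 11.96 ± 1.86 and 16.4 ± 3.49 CPM in UVB (SD, n = 3). CENPA, the histone variant that marks centromeres, was at 1.65 ± 0.531 CPM in UVB + sauchinone and 2.83 ± 0.172 CPM in UVB (adjusted p = 0.016), and its call was lost without UVB + sauchinone replicate 2 (0.090) and without UVB replicate 1 (0.052).

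**Figure D2:**
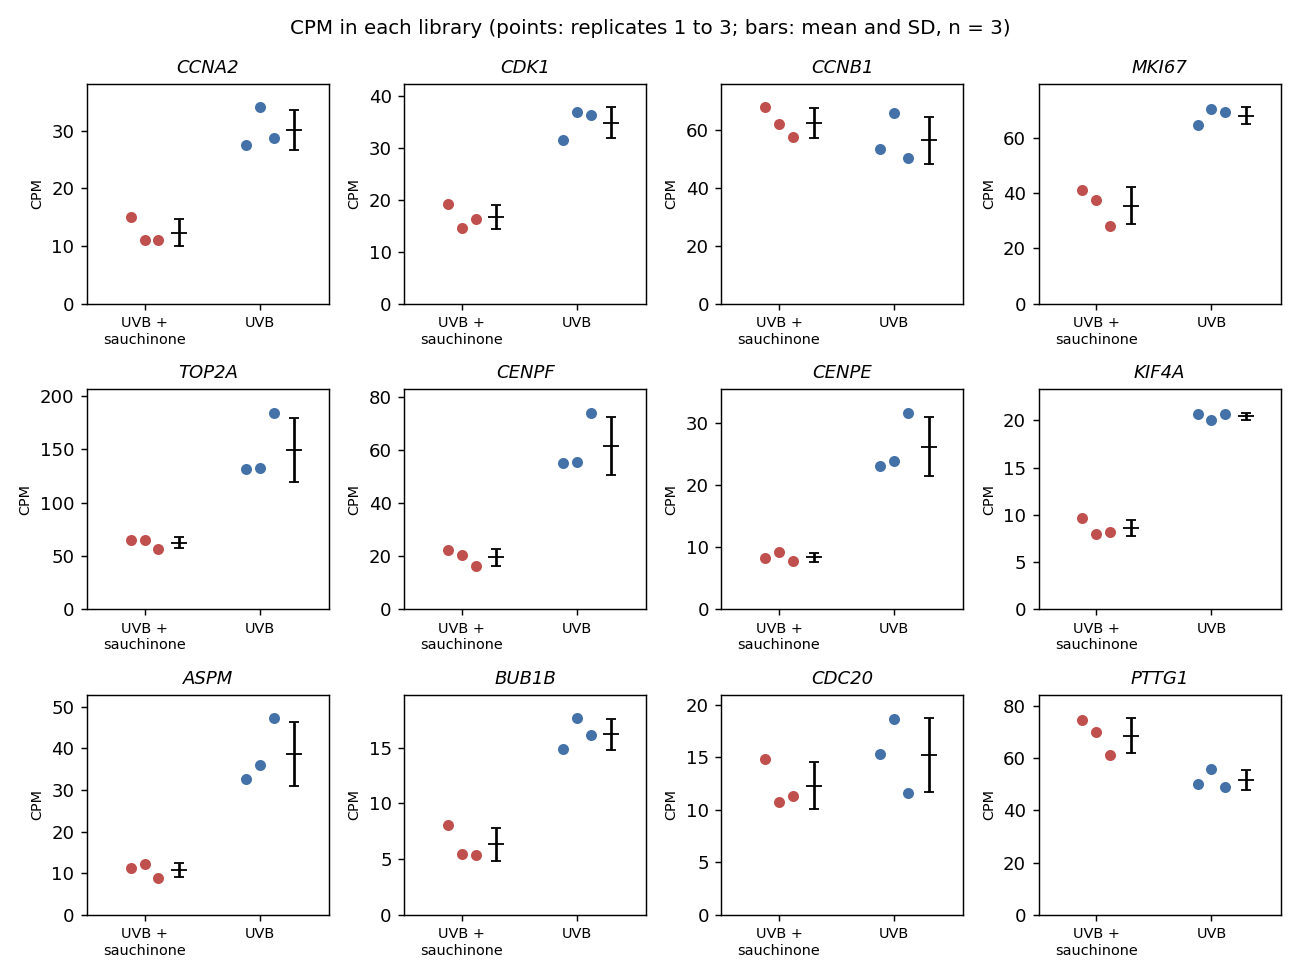
CPM of 12 of the genes in each library, with UVB + sauchinone in red left of UVB in blue; points are replicates 1 to 3 from left to right, and the bar beside them gives the mean and SD (n = 3). In CCNA2, CDK1, MKI67, TOP2A, CENPF, CENPE, KIF4A, ASPM and BUB1B all red points lie below all blue ones, in PTTG1 above, and in CCNB1 and CDC20 the groups overlap.

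Spindle checkpoint and passenger complex. The 3 checkpoint kinase genes fell, as did 24.9% of all genes tested. BUB1 was at 12.3, 11.2 and 11.8 CPM in UVB + sauchinone, against 24.4, 28.6 and 28.1 CPM in UVB (2.29-fold lower, adjusted p = 8.0e-09). BUB1B, which encodes the APC/C inhibitor BUBR1, was at 8.05, 5.49 and 5.40 CPM in UVB + sauchinone, against 14.9, 17.6 and 16.1 CPM in UVB (2.57-fold lower, adjusted p = 1.2e-07). TTK, the kinase MPS1 that starts the checkpoint signal, fell 1.98-fold.

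Neither gene of the chromosomal passenger complex, which corrects faulty attachments, passed. AURKB, its kinase, was at 4.34, 3.24 and 4.11 CPM in UVB + sauchinone and 4.72, 5.60 and 4.46 CPM in UVB (log2 fold change −0.34 ± 0.19, adjusted p = 0.14). BIRC5, its subunit survivin, was at 23.3, 23.3 and 19.5 CPM in UVB + sauchinone and 25.1, 28.1 and 20.9 CPM in UVB (log2 fold change −0.16 ± 0.12, adjusted p = 0.26). The AURKB groups did not overlap and the BIRC5 groups did, and without UVB replicate 3 BIRC5 passed as lower (−0.27, adjusted p = 0.034). Whether their changes differed from those of the checkpoint genes was not tested.

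Mitotic kinesins. All 8 motor genes fell, with every UVB + sauchinone library below every UVB library. Among all genes tested 24.9% fell and 28.5% lay apart in this way. KIF4A, a motor on chromosome arms and the midzone (ENSG00000090889, chromosome X at 70290104 to 70420886, plus strand), was at 9.63, 7.99 and 8.18 CPM in UVB + sauchinone, against 20.7, 20.0 and 20.7 CPM in UVB (2.38-fold lower, adjusted p = 1.5e-08). KIF14, a motor of cytokinesis, was at 3.66, 3.33 and 3.64 CPM in UVB + sauchinone, against 11.2, 8.11 and 12.4 CPM in UVB (2.98-fold lower, adjusted p = 1.1e-07). The UVB libraries of KIF14 were more scattered than the treated ones, but the lowest of them was still above the highest treated library. KIF11 and KIF15, which push the spindle poles apart, fell 2.05-fold and 2.57-fold. KIF18A, which limits chromosome oscillation, fell 2.09-fold, and KIF23, a subunit of the centralspindlin complex, 1.78-fold. The smallest falls were those of KIF20A, which carries the passenger complex to the midzone (1.504-fold), and KIF2C, a microtubule depolymerase (1.49-fold).

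Spindle and midzone proteins. Of 7 genes 6 fell (24.9% of all genes tested fell) and 1 did not pass. ASPM, a spindle pole protein (ENSG00000066279, chromosome 1 at 197084121 to 197146694, minus strand), was at 11.2, 12.2 and 8.78 CPM in UVB + sauchinone, against 32.7, 36.0 and 47.2 CPM in UVB. It fell by 1.85 ± 0.14 on the log2 scale (adjusted p = 2.3e-10), the largest fall of the 42 genes. DLGAP5, a protein that stabilises kinetochore fibres, was at 11.3, 10.4 and 8.40 CPM in UVB + sauchinone, against 26.5, 27.1 and 29.8 CPM in UVB (2.78-fold lower, adjusted p = 1.1e-09). HMMR, a spindle protein also known as a hyaluronan receptor, fell 2.60-fold, and ANLN, a scaffold of the cleavage furrow, 2.28-fold.

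TPX2, which activates Aurora A on the spindle, fell only 1.35-fold, to 78.4 ± 4.04 CPM in UVB + sauchinone against 106 ± 7.05 CPM in UVB (SD, n = 3; adjusted p = 0.00013). PRC1, which bundles midzone microtubules, fell 1.56-fold. NUSAP1, a microtubule-binding protein, had only 18, 6 and 5 counts in UVB + sauchinone and 14, 26 and 20 counts in UVB, and did not pass (log2 fold change −1.11 ± 0.49, adjusted p = 0.064). It passed as lower without UVB + sauchinone replicate 1 (−1.93, 0.0086). It also did with limma-voom, another test of counts (−1.29, 0.032), and with the trend in exonic size removed (−1.19, 0.044). In GENCODE 29, 62.2% of the exonic bases of NUSAP1, 57.6% of those of PRC1 and 10.2% of those of BUB1B are shared with an overlapping gene on the same strand. How the authors assigned such reads is not stated, so the levels of these 3 genes are uncertain.

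Anaphase control. Of the 5 genes of the APC/C, separase and cohesion control 2 fell, 2 rose and 1 did not pass. Among all genes tested 24.9% fell and 24.7% rose. SGO2, shugoshin 2, which protects centromeric cohesin, was at 13.6, 13.1 and 11.8 CPM in UVB + sauchinone, against 18.5, 19.1 and 23.8 CPM in UVB (1.597-fold lower, adjusted p = 8.1e-05; a log2 fold change of −0.40 in place of −0.67 with the trend in transcript GC content removed). PTTG1, securin, the inhibitor of separase (ENSG00000164611, chromosome 5 at 160421855 to 160428739, plus strand), was at 74.6, 69.9 and 61.3 CPM in UVB + sauchinone and 50.1, 55.9 and 49.03 CPM in UVB. Every treated library was above every UVB library, and PTTG1 rose by 0.41 ± 0.092 on the log2 scale (adjusted p = 0.00076). Separase itself, ESPL1, was at 9.81, 10.0 and 9.26 CPM in UVB + sauchinone and 7.03, 6.21 and 6.62 CPM in UVB, again without overlap, and rose by 0.55 ± 0.14 (adjusted p = 0.0023).

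UBE2C, the ubiquitin-conjugating enzyme of the APC/C, fell 1.503-fold (adjusted p = 0.015), a call lost without UVB + sauchinone replicate 3 (0.10) and without UVB replicate 3 (0.097). CDC20, the APC/C activator, was at 14.8, 10.7 and 11.3 CPM in UVB + sauchinone and 15.3, 18.7 and 11.6 CPM in UVB. These groups overlapped and CDC20 did not pass (log2 fold change −0.31 ± 0.16, adjusted p = 0.11), although it did without UVB + sauchinone replicate 1 (0.034) or UVB replicate 3 (0.0054).

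Levels of different genes can be set side by side in FPKM, which divides by exonic size. In UVB the highest of the 42 genes was TPX2 at 28.8 ± 1.81 FPKM, followed by PTTG1 at 25.7 ± 1.73, TOP2A at 23.1 ± 4.59, CCNB1 at 22.9 ± 3.21 and ANLN at 22.5 ± 2.27 (SD, n = 3). Neighbours in this order overlapped in their mean ± SD. In UVB + sauchinone the order was PTTG1 at 35.2 ± 3.49 FPKM, CCNB1 at 26.1 ± 2.27, TPX2 at 22.1 ± 1.21, AURKA at 13.2 ± 0.613 and ANLN at 10.2 ± 1.77, with TOP2A at 9.91 ± 0.794, and only the last 2 overlapped in their mean ± SD.

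The promoters of these genes are shown because the members moved together and because such promoters share known elements: the cell cycle genes homology region (CHR), bound by MuvB complexes, and the CCAAT box, bound by NF-Y. RefSeq promoters (GRCh38.p14, from 250 bases before to 50 after the start) were at hand for 37 members, 46 promoters in all. The letters TTTGAA or TTTAAA, counted here as a CHR wherever they stood, were searched on both strands, as were the letters CCAAT. Matches were allowed to overlap, and a CHR with other letters was not counted. A CHR was found in 38 of the 46 promoters (82.6%), against 17.6% of 16103 promoters of the genes tested, and CCAAT in 32 (69.6%), against 34.7%. Both stood in 28 promoters (60.9%), against 6.85% of promoters of the genes tested. The CHR lay in the last 50 bases before the start in 25 promoters (54.3%), against 3.38%. Promoters of members that fell held a CHR in 30 of 34 cases, and those of members that did not fall in 8 of 12. For CCAAT the shares ran the other way, at 22 of 34 and 10 of 12. They also did so for both elements together, at 20 of 34 and 8 of 12. Genes with several promoters were counted with each of them, and these differences were not tested. A match of letters is a description and does not show that a factor was bound.

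Of the promoters that hold both elements, those of ASPM, CENPF and DLGAP5 belong to the genes with the smallest p. That of CCNB1, which did not fall, was added after its value was seen, for contrast. Capitals mark the CHR and CCAAT letters on either strand, and every promoter is written 5′ to 3′ on the strand of its gene. ASPM lies at chr1:197146620-197146919 (minus strand), CENPF at chr1:214602945-214603244 (plus), DLGAP5 at chr14:55191536-55191835 (minus) and CCNB1 at chr5:69166900-69167199 (plus).
ASPM: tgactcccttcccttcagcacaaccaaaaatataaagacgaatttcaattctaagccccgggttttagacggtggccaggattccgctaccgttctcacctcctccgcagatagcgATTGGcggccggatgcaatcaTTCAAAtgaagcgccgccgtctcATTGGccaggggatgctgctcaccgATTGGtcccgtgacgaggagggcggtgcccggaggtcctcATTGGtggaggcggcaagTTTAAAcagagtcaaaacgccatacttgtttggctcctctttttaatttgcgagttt
CENPF: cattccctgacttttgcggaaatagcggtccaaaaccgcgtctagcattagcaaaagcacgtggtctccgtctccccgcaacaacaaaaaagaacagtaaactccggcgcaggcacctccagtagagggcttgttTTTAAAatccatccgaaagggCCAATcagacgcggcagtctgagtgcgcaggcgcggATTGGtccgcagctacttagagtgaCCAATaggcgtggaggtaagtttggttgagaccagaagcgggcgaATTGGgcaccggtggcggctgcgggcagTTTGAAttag
DLGAP5: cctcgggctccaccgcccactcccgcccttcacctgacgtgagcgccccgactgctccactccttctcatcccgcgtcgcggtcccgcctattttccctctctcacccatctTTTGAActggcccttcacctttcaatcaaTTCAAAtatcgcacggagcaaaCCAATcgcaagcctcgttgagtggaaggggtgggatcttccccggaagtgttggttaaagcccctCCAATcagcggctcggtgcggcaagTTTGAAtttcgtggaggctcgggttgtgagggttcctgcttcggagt
CCNB1: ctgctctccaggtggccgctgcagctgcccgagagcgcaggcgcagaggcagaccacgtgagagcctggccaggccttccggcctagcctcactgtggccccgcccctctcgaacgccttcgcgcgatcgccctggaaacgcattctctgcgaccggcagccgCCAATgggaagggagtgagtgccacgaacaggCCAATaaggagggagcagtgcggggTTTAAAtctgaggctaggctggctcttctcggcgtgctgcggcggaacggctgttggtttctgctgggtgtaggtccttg
With the base before the start counted as −1, the CHR of CCNB1 begins at −30 and its CCAAT letters at −87 and −55. That of ASPM nearest to the start begins at −7, with CCAAT letters at −134, −90, −65 and −25. CENPF has CHR letters from −115 and from 41, and DLGAP5 from −138, −109 and 4. The CHR letters of CCNB1 are TTTAAA, those of DLGAP5 are TTTGAA, and ASPM and CENPF hold both.

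**Figure D3:**
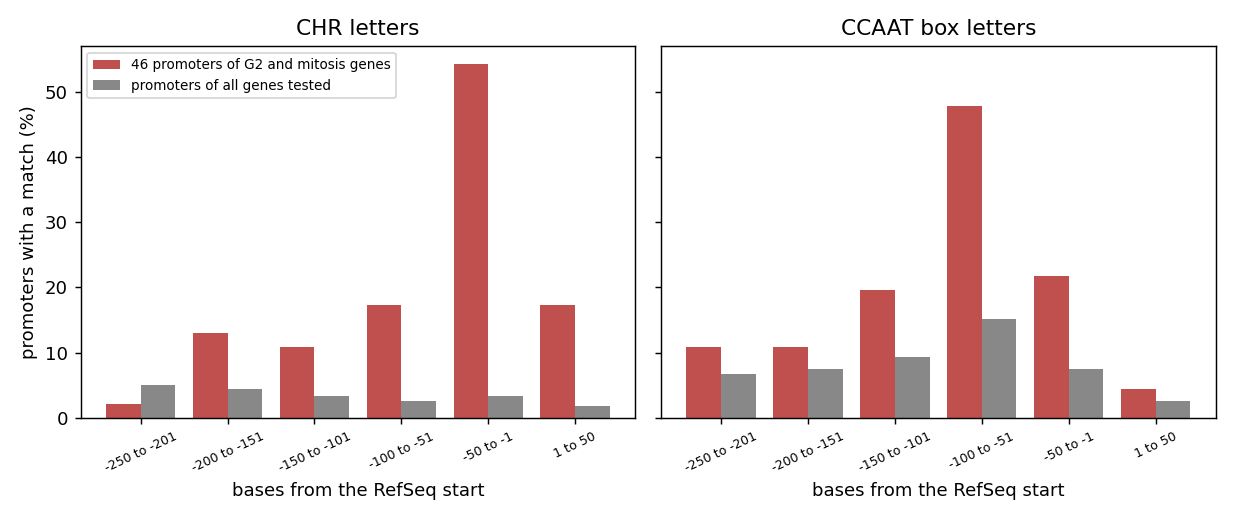
Share of promoters with CHR letters (left) and CCAAT letters (right) in each of 6 windows of 50 bases, counted from the RefSeq start; red bars are the 46 promoters of the G2 and mitosis genes and grey bars the promoters of all genes tested. CHR letters peak in the window from −50 to −1 (54.3% against 3.38%), and CCAAT letters in the window from −100 to −51 (47.8% against 15.2%).

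Log2 fold changes ran with genomic span, the distance between a gene's first and last base, among the mitotic genes and among all genes tested. The Spearman correlation of span with log2 fold change was −0.63 across the 42 members and −0.39 across the 15704 genes tested, given as a description since genes share libraries. Of the 12 members with a span of up to 25 kb 7 fell (11.04% of tested genes of that span), of the 15 with spans of 25 to 50 kb 14 fell (20.0%), and of the 15 with longer spans 13 fell (47.0%). The median log2 fold change was −0.39, −0.94 and −1.25 in these 3 classes of members, beside 0.17, 0.027 and −0.28 for tested genes of the same spans. The roles differed in span as well. Median spans were 75.3 kb for mitotic kinesins and 61.4 kb for kinetochore and centromere genes. They were 16.5 kb for cyclins, CDK1 and entry kinases, 8.66 kb for the passenger complex and 6.885 kb for anaphase control. The part of span in the differences between roles was not tested. CCNA2, with a span of 7.44 kb, had the largest fall of the 12 members of up to 25 kb, at −1.29. When a smooth trend of counts with span was removed from each library, 37 members fell and 1 rose, with a median of −0.91. Over all genes tested 3458 fell and 3813 rose in that fit. The rise of PTTG1 then no longer passed (0.19, adjusted p = 0.067), whereas AURKB, BIRC5 and CDC20 now passed as falls (−0.56, −0.34 and −0.53). CCNB1 was then at −0.039 and again did not pass (adjusted p = 0.75).

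**Figure D4:**
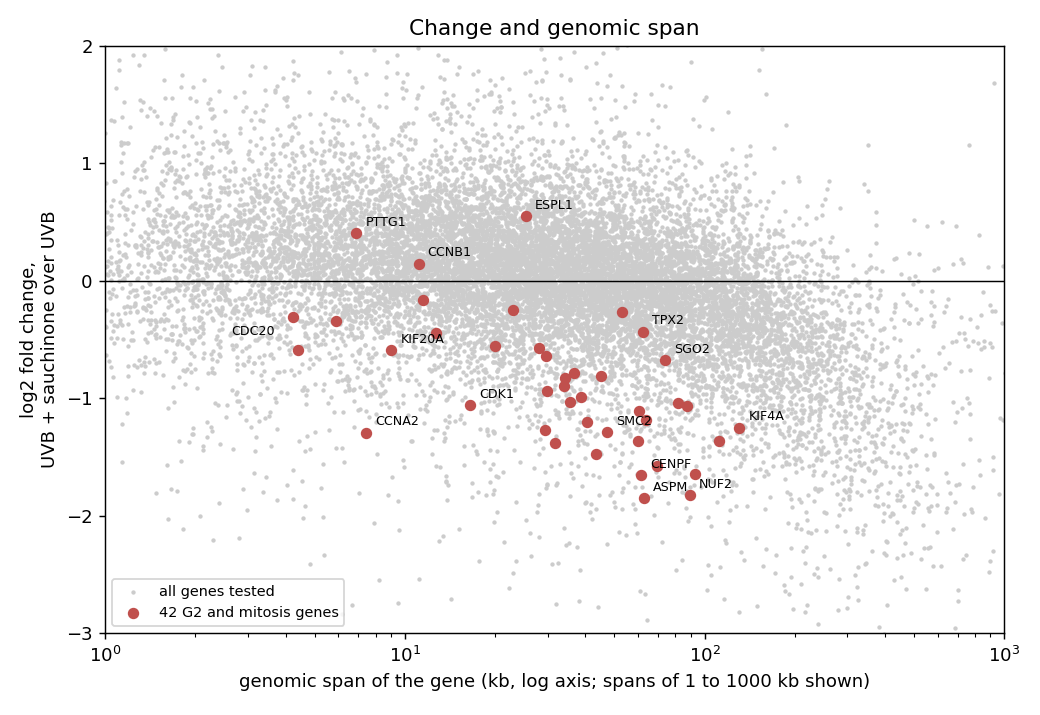
Log2 fold change, UVB + sauchinone over UVB, against genomic span on a log axis, for the 42 G2 and mitosis genes (red) and all genes tested (grey; the most extreme points lie beyond the axes). Longer genes tend to lie lower in both sets. CCNA2 and CDK1, with spans of 7.44 and 16.5 kb, lie lowest among the members of up to 25 kb.

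Libraries of a group differed in their mitotic level. UVB + sauchinone replicate 1 was the highest of its group in 27 of the 42 genes and replicate 3 the lowest in 26, while UVB replicate 3 was the highest of its group in 23. Over all genes tested, UVB + sauchinone replicate 1 was the highest of its group in 31.2% of genes and UVB replicate 3 in 38.2%. Without UVB replicate 3 the members' median log2 fold change was −0.83, with 35 lower and 2 higher.

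Of 99 tested genes in 4 further lists of mitotic genes, 55 fell and 15 rose, with a median of −0.36. Among all genes tested 24.9% fell and 24.7% rose. Of 32 other kinetochore and centromere genes 21 fell and 3 rose, and CENPI of the inner and KNL1 of the outer kinetochore fell by 1.48 ± 0.13 and 1.16 ± 0.13 (SE). The 3 that rose were MIS12 by 0.63, CENPN by 0.30 and CENPL by 0.27, and the call of CENPL was lost in 10 of 16 alternatives, including 5 of the 6 fits that left out a library (highest adjusted p = 0.18). Of 26 other spindle, midzone and cytokinesis genes 15 fell, and those with the smallest p were the motor KIF20B (fell by 1.27 ± 0.13) and the abscission protein CEP55 (fell by 0.98 ± 0.11). INCENP, the scaffold of the passenger complex, rose by 0.30, a call lost in 7 alternatives, among them the fits without UVB + sauchinone replicate 1 and without UVB replicate 1 (highest adjusted p = 0.55). Of 16 other condensin and cohesin genes 9 fell and 3 rose. NCAPG2 of condensin II fell by 1.18 ± 0.11, and STAG1 of cohesin, with a span of 416 kb, by 1.30 ± 0.095, or 0.29 once the trend with span was removed. RAD21, the cohesin subunit that separase cuts, rose by 0.39 (0.67 with the trend in exonic size removed), CDCA5, sororin, by 0.63 and WAPL, which releases cohesin, by 0.23, the last without a call when UVB + sauchinone replicate 2, UVB replicate 1 or UVB replicate 2 was left out.

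**Figure D5:**
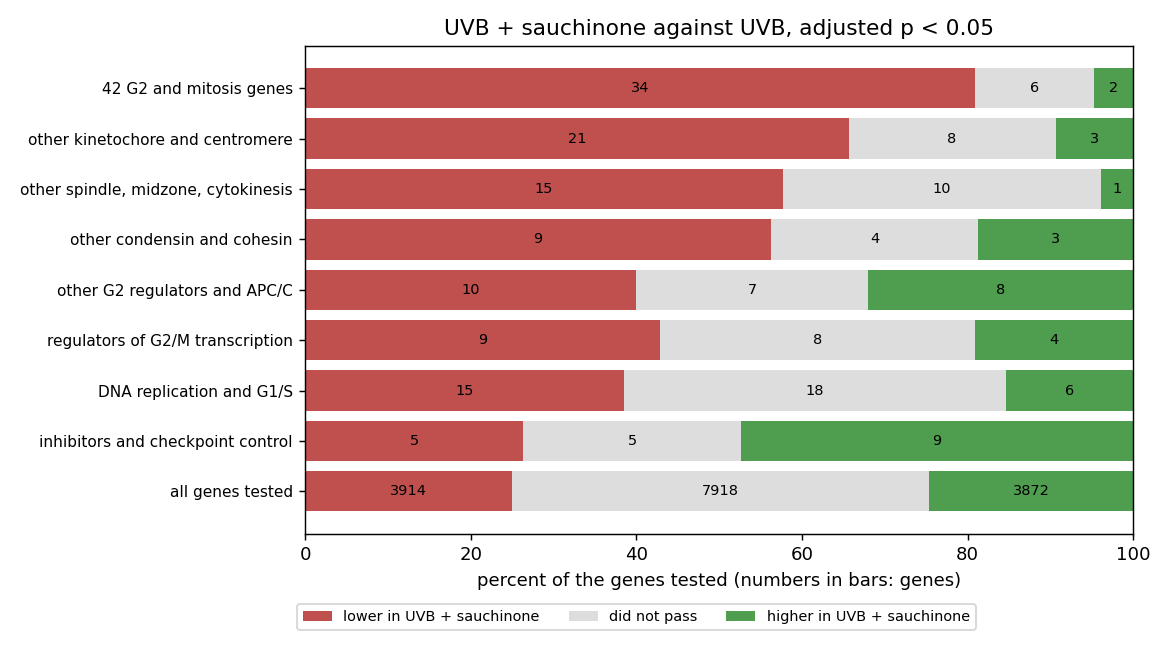
Percent of tested genes in each list that were lower (red), did not pass (grey) or were higher (green) in UVB + sauchinone against UVB, with gene numbers in the bars. The 42 G2 and mitosis genes have 34 lower and 2 higher, and all genes tested 3914 lower and 3872 higher.

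G2 regulators and subunits of the APC/C moved both ways, with 10 of 25 lower and 8 higher and a median of −0.12. Among all genes tested 24.9% were lower and 24.7% higher. MELK, a mitotic kinase, fell to 15.1 ± 2.29 CPM in UVB + sauchinone against 31.8 ± 2.37 CPM in UVB. UBE2S, which extends ubiquitin chains for the APC/C, rose to 38.1 ± 3.11 CPM against 19.5 ± 1.93 CPM (SD, n = 3), a change opposite to that of its partner enzyme UBE2C. Genes of DNA replication and G1/S also moved both ways, with 15 of 39 lower and 6 higher and a median of −0.11. POLA1, with a span of 303 kb, fell by 1.86 ± 0.17, or 1.02 once the trend with span was removed, and PCNA rose by 0.72 ± 0.080. The difference between lists was not tested.

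Regulators of G2/M transcription had a median log2 fold change of −0.14. FOXM1, the main activator, was at 19.6 ± 2.13 CPM in UVB + sauchinone and 24.0 ± 1.81 CPM in UVB, a log2 fold change of −0.30 ± 0.11 (adjusted p = 0.028), and the call was lost in every fit without a library except those without UVB + sauchinone replicate 1 and without UVB replicate 3 (highest adjusted p = 0.12). MYBL2, which encodes B-MYB, fell by 0.96 ± 0.18, to 3.81 ± 0.513 CPM against 7.42 ± 1.52 CPM (adjusted p = 0.00015). LIN54, the MuvB subunit that contacts the CHR, was at 35.0 ± 2.66 CPM in UVB + sauchinone and 33.7 ± 2.61 CPM in UVB and did not pass (adjusted p = 0.67). LIN54 passed as higher with the trend with span removed (0.28, adjusted p = 0.015) and with the trend in transcript GC content removed (0.26, adjusted p = 0.0070). Of the 21 regulators tested 9 fell and 4 rose, where 24.9% of all genes tested fell and 24.7% rose. The 4 were E2F7, a repressor of E2F targets, by 0.67 ± 0.085, NFYA, a CCAAT-binding subunit, by 0.62 ± 0.089, and E2F1 and LIN37 by 0.45 and 0.50. The calls of E2F1 and LIN37 were lost in 11 of 16 alternatives each, including every fit that left out a library except the one without UVB replicate 2 (highest adjusted p = 0.38 and 0.25).

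Of 19 tested genes in a list of inhibitors and checkpoint control of G2 entry, 9 rose and 5 fell, with a median of 0.20. The share that fell, 26.3%, was near the 24.9% of all genes tested, of which 24.7% rose. Not every gene of the list is an inhibitor: MDM2 and PPM1D are among those that rose, by 0.45 and 0.95. GADD45B and GADD45A, stress genes known to restrain CDK1 and cyclin B1, had the smallest p of the list. GADD45A was at 243, 300.4 and 206 CPM in UVB + sauchinone, against 107, 101 and 97.0 CPM in UVB, and rose by 1.30 ± 0.10 (adjusted p = 4.6e-10). GADD45B rose by 1.71 ± 0.12, and CDKN1A, the gene of the CDK inhibitor p21, by 0.60 ± 0.072. Those that fell included the kinases ATM, ATR, CHEK1 and CHEK2 of the damage checkpoint, by 1.04, 0.44, 0.40 and 0.50. ATM, with a span of 146 kb, fell by 0.64 once the trend with span was removed and by 0.44 with the trend in exonic size removed. The call of ATR, with a span of 130 kb, was lost when the trend with span was removed (−0.11, adjusted p = 0.36). WEE1, the kinase that holds CDK1 inactive, was at 40.9 ± 3.39 CPM in UVB + sauchinone and 44.5 ± 0.952 CPM in UVB and did not pass (adjusted p = 0.29). With the trend with span removed WEE1 passed as lower (−0.25, adjusted p = 0.025).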

How the data were processed

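RNA of HFF fibroblasts was sequenced as strand-specific paired-end libraries, per the labels' protocols, which name poly(A) selection and removal of ribosomal RNA as alternatives. The authors deposited raw read counts for each gene, beside FPKM and each gene's exonic size in bases (a value of another kind). The genome build was GRCh38, according to the submitters' processing notes. Aligner, counter, annotation release and counting by strand: not given in the sources used here.

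The count test was edgeR 4.0.16 under R 4.3.3 (filterByExpr, TMM, quasi-likelihood test, two-sided, no covariates, Benjamini-Hochberg over 15704 genes). A standard error is the log2 fold change divided by the root of F. The deposited FPKM values were used only to order genes by level. The fits were also run on simulated data as a check of the code, which does not give their error rates in these data. The members and lists were chosen with earlier results of these data known. Named were the 2 members of each role, and the 2 genes of each other list, with the smallest p, members that did not pass or rose, genes against their list's direction where 5 or fewer, and MKI67, CCNB1, CDK1, FOXM1, MYBL2, LIN54, CDKN1A, WEE1 and PCNA; other members are given briefly. A further gene that the rule names is not reported here. Lists were described by counts and medians, without set tests. Alternatives were DESeq2 1.42.0, limma-voom (limma 3.58.1), other filters and scalings, offsets removing trends with span or exonic size, a block for replicate number, fits lacking 1 library, and, chosen after seeing the data, an offset for transcript GC content (GENCODE 29 transcripts, 98.2% of tested genes). Exon overlaps came from GENCODE 29 on GRCh38 and promoters from RefSeq.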

Additional observations from a re-analysis of the deposited data

How the results depend on the processing

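In the 16 alternatives the number of members that fell lay between 31 and 37, and no member changed direction with a call. Over all genes tested, the number that fell lay between 3422 and 4010. Removing the trend with span left 1 member and 3 replication genes higher, and removing the trend with transcript GC content gave a members' median of −0.79 and 5 higher genes among the other kinetochore genes. The number of higher regulators of G2/M transcription was 2 without a filter on low counts, with DESeq2, with the replicate block and with the trend in exonic size removed. That of other spindle genes was 0 without a filter and with the block, and 2 with scaling by total counts. ATR reversed to 0.038 with the trend in exonic size removed, with no call. The causes were not tested.

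Leaving out each library gave 31 to 35 members lower, 2 to 3 higher and a median of −1.003 to −0.83, with 2 to 4 regulators and 0 to 2 other spindle genes higher. In these fits 3422 to 3977 of all genes tested were lower and 3296 to 3937 higher. Replicate numbers are shared by the groups, and the labels do not state a pairing. The deviations of same-numbered libraries correlated at 0.0072, −0.078 and −0.031, and not every library correlated best with its own number. No shared effect of replicate number was seen, but 3 libraries in each group cannot show whether same-numbered ones were prepared together. With the replicate block 34 members fell and 2 rose, and over all genes 3677 fell and 3603 rose. With 3 libraries in each group and low levels, as in NUSAP1 with 5 to 26 counts, counting error limits what could be detected.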
